A study of Mus musculus with 8 samples.

Results

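A set of 38 genes that mark macrophages and other leukocytes was followed in the hearts of 4 wild-type (WT) and 4 SIRT1 knockout (SIRT1 KO) mouse embryos at E18.5. The genes were listed by name, and a probe of the array was assigned to one of them when its transcript accession mapped to that gene. Of the 38 genes, 37 had probes, 51 in all, and were among the 19096 genes named on the array. No probe was matched to *Kit*, the receptor for stem cell factor that mast cells and progenitors carry. The SIRT1 KO embryos carry a whole-body germ-line deletion of SIRT1, a nuclear protein deacetylase, so every cell type of the heart shares the genotype. WT and SIRT1 KO embryos were on the C57BL/6 background (C57BL/6J in the study's methods) and came from chow-fed heterozygous parents, and neither group received a treatment. RNA from 1 heart was hybridized to each one-color Agilent array, and hearts 1 to 4 below are the replicate numbers of each genotype.

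Macrophages settle in the fetal heart before birth, from yolk sac and fetal liver progenitors, and remain there as resident cells. They depend on the growth factor CSF1 and its receptor CSF1R, take up dead cells and debris, make the complement component C1q, and read antibody and lipid ligands through Fc receptors and TREM2, which signal through the adaptor chains FCER1G and TYROBP. Neutrophils and mast cells, which the list also covers, carry calcium-binding S100 proteins and granule proteases. In a whole-heart RNA sample, fewer cells of a type and less RNA per cell cannot be told apart.

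Values are given as log2 signal, the log2 of a probe's intensity minus the 75th percentile of the same array. A value of 0 is thus that percentile, and dimmer probes are negative. Levels of different probes are not comparable with each other, so each gene is compared only with itself. All 4 WT hearts were scanned on 1 day and all 4 SIRT1 KO hearts on another. Genotype thus cannot be told apart from scan day, or from a slide that went with it. The 75th percentile ran from 939 to 1033 intensity units in WT and from 777 to 906 in SIRT1 KO, and each array had 59.5% to 64.9% of its probes well above background. *Sirt1* itself was not lower past the threshold on either of its probes. On the brighter of the *Sirt1* probes it was higher in the hearts labelled SIRT1 KO (log2 fold change 0.54, with a standard error, SE, of 0.11, limma adjusted p = 0.0323), and on the other the log2 fold change was -0.11 (SE 0.11, limma adjusted p = 0.589). The call on the brighter probe held in 2 of the 8 fits that leave out a heart and was lost by the methods' analysis of variance (adjusted p = 0.0865). Where these probes lie relative to the deleted part is not given in the sources used here, so SIRT1 KO hearts are below the hearts labelled so. SIRT1 KO hearts 1 and 4 stood apart in hepatocyte genes, and heart 1 in neutrophil genes too, and results are also given without them. With limma and Benjamini-Hochberg adjustment over 25615 probes, 1250 (4.88%) passed an adjusted p of 0.05, of which 1017 were higher in the SIRT1 KO hearts. That split moved with the scaling, with 672 of 1051 calls higher under quantile normalization, 749 of 1063 under cyclic loess, 680 of 1784 with median scaling, 639 of 6352 without scaling and 2118 of 2566 with normexp background correction.

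The promoters of 5 of these genes are shown first, because the results below turn on them. *Trem2*, *Cd68* and *Ncf1* are the genes whose genotypes did not overlap, *Mrc1* is a gene with a lower mean in the SIRT1 KO hearts, and *Fcgr1* is the gene that followed *Csf1r* most closely from heart to heart. PU.1, the product of *Spi1*, is the transcription factor best known for driving macrophage genes, and its core letters GAGGAA were searched on both strands of the 250 bases before each start. The sequences are from RefSeq on GRCm38.p6, read 5′ to 3′ in the direction of the gene, and capitals mark each match (TTCCTC where it lies on the opposite strand). They are *Trem2* at chr17:48346151-48346400 (plus strand), *Cd68* at chr11:69666171-69666420 (minus strand), *Ncf1* at chr5:134229626-134229875 (minus strand), *Mrc1* at chr2:14229164-14229413 (plus strand) and *Fcgr1* at chr3:96293970-96294219 (minus strand).
Trem2: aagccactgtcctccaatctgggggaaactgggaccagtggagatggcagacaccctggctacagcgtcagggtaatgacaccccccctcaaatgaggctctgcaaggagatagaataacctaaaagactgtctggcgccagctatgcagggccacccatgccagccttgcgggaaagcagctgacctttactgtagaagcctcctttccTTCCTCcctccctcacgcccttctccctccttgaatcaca
Cd68: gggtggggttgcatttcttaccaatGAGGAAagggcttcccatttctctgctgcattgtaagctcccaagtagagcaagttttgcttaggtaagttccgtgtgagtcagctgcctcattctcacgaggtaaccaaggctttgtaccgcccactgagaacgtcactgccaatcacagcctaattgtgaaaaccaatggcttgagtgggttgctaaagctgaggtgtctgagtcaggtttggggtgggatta
Ncf1: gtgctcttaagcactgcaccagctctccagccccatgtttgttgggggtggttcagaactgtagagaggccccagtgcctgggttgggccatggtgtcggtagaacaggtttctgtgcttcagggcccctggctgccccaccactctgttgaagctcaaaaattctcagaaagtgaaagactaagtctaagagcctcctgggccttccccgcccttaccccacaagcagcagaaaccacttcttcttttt
Mrc1: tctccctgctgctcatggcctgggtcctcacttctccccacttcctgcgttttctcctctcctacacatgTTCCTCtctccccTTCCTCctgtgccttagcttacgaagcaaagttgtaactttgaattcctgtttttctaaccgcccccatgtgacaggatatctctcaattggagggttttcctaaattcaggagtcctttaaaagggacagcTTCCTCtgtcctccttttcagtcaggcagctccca
Fcgr1: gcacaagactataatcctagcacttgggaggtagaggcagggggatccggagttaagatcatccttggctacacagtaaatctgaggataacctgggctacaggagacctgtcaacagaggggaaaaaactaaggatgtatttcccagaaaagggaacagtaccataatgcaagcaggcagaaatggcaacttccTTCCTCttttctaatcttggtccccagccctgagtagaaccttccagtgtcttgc
The *Mrc1* stretch holds 3 matches, those of *Trem2*, *Cd68* and *Fcgr1* hold 1 each, and that of *Ncf1* holds 0. The match of *Trem2* lies 34 bases before the start and that of *Cd68* 219 bases before it. Promoters were found for 30 of the 38 genes, with 38 starts, and 17 of these starts (44.7%) hold the letters, against 23.3% of the 32851 starts of all genes. A match is a run of letters and was not tested as a binding site.

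Most of the genes were readily detected in whole hearts. Of the 51 probes, 41 were well above background on all 8 arrays and entered the test, and these cover 34 genes. The 3 genes that could not be tested were *Timd4*, a phosphatidylserine receptor of resident macrophages, *Spi1* and *Itgam*. The probe of *Timd4* and that of *Spi1* were well above background on no array. One *Itgam* probe, for the integrin chain CD11b, was well above background on 2 of the 8 arrays, both SIRT1 KO, and the other on none. Further probes of *Csf1r*, *Cx3cr1*, *Ptprc*, *Cybb* and *Ncf1* were also too dim to test, and these genes are reported from their other probes. A gene with several tested probes is given by its brightest probe.

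None of the 34 genes passed the threshold between genotypes, on any of their 41 tested probes, by limma or by the methods' analysis of variance with Benjamini-Hochberg adjustment. On their brightest probes 20 genes were higher and 14 lower in the SIRT1 KO hearts, which became 17 and 17 under quantile normalization, 18 and 16 under cyclic loess, 12 and 22 with median scaling, 10 and 24 without scaling and 24 and 10 with normexp. The median log2 fold change was 0.05, beside 0.01 over all probes tested. Without scaling and with median scaling the median of all probes itself moved to -0.21 and -0.12. Both settings shift all probes of an array by the same amount, so the median of these genes stayed 0.04 above it by construction. At an unadjusted limma p under 0.05, 6 of the 41 probes (14.6%) were higher in the SIRT1 KO hearts, against 13.4% of all probes, and 3 (7.32%) were lower, against 8.1%. The genotypes did not overlap on 3 probes, all higher in the SIRT1 KO hearts, which is 7.32% of the probes beside 8.63% of all probes higher. Each of these shares lay near that of the array as a whole. On 0 probes did all SIRT1 KO hearts lie below all WT hearts, beside 5.11% of all probes.

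**Figure D1:**
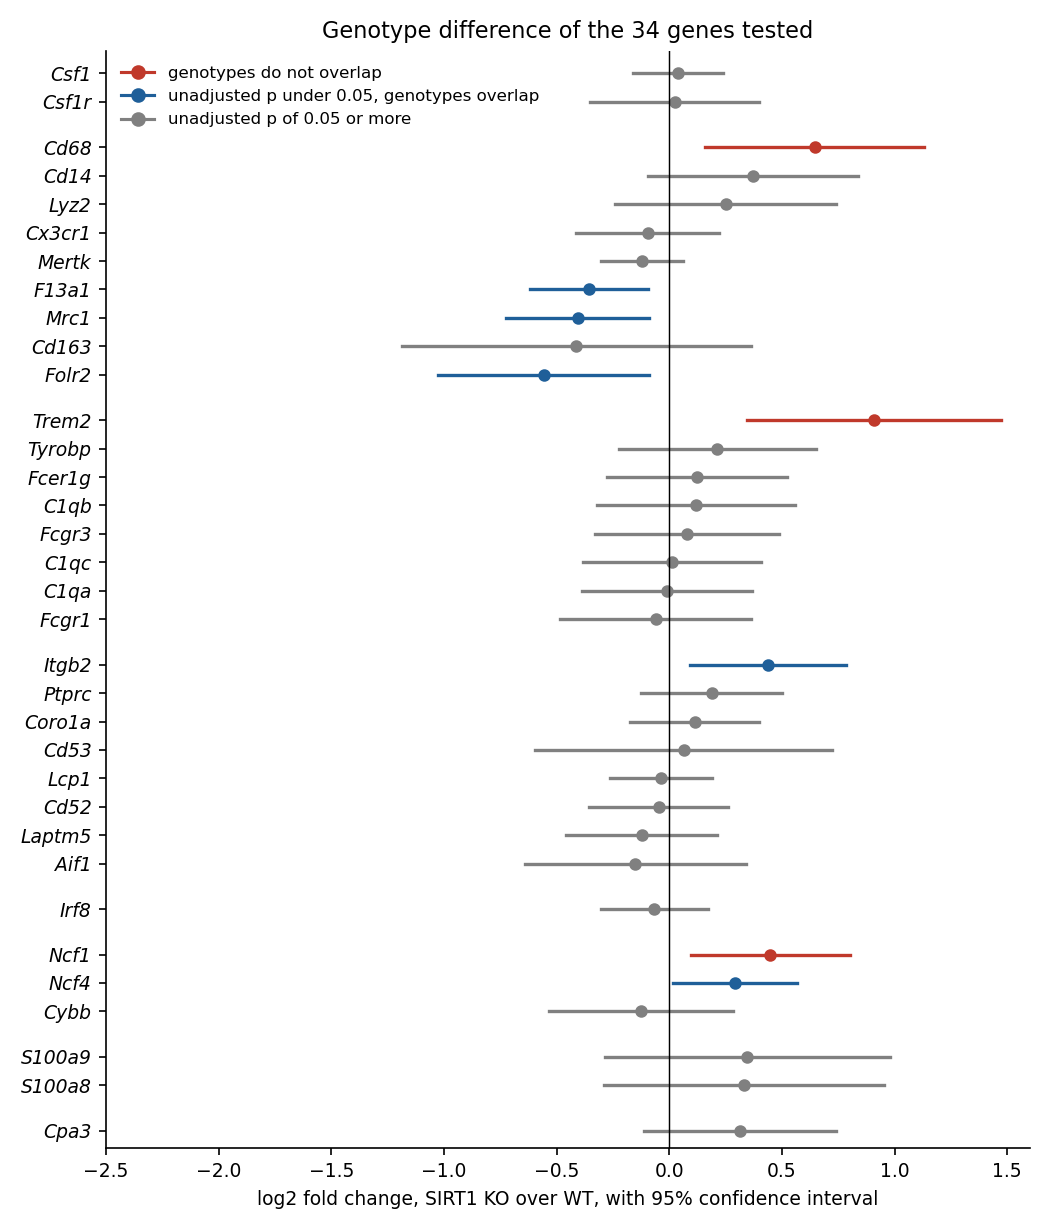
Log2 fold change (x axis) of the 34 genes tested, SIRT1 KO over WT, each on its brightest probe and grouped by role; points are the limma estimates and bars their 95% confidence intervals. The interval excludes 0 for *Trem2*, *Cd68*, *Itgb2*, *Ncf1* and *Ncf4* above it and for *F13a1*, *Mrc1* and *Folr2* below it, while those of *Csf1*, *Csf1r* and the C1q genes span 0.

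The growth factor and its receptor had log2 fold changes near 0. *Csf1* (probe A_51_P195506), the growth factor itself, had log2 signals of 0.01, 0.31, 0.16 and 0.22 in WT hearts 1 to 4 and of 0.14, 0.36, 0.18 and 0.17 in SIRT1 KO hearts 1 to 4. The genotypes overlapped, and the log2 fold change was 0.04 (95% confidence interval -0.16 to 0.24, limma adjusted p = 0.845). *Csf1r* (A_51_P365885), the receptor that all macrophages carry, stood at -1.32, -0.80, -1.02 and -0.98 in the WT hearts and at -1.46, -0.85, -0.77 and -0.95 in the SIRT1 KO hearts. Heart 1 was the lowest of its genotype in both, and the genotypes overlapped. The log2 fold change of *Csf1r* was 0.02 (95% confidence interval -0.35 to 0.40, limma adjusted p = 0.952) and that of its dimmer tested probe 0.03. Median scaling and no scaling turned both genes below 0, to -0.09 and -0.18 for *Csf1* and to -0.11 and -0.20 for *Csf1r*, and *Csf1r* was 0.17 without SIRT1 KO heart 1 and 0.22 without SIRT1 KO hearts 1 and 4.

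The surface and secreted proteins of resident macrophages had differences of both signs. Of the 9 genes tested, 3 were higher and 6 lower, with a median of -0.12. *Cd68* (A_51_P120470), a lysosomal membrane glycoprotein of phagocytes, was measured at -2.87, -2.71, -3.01 and -2.88 in the WT hearts and at -2.66, -2.51, -1.55 and -2.16 in the SIRT1 KO hearts. All 4 SIRT1 KO hearts lay above all 4 WT hearts, heart 3 by the most. The log2 fold change was 0.64 (SE 0.22, 95% confidence interval 0.16 to 1.13), with a limma adjusted p of 0.133 and the smallest p that 4 against 4 allow in the exact two-sided permutation test (p = 0.0286). Leaving out SIRT1 KO heart 3 brought it to 0.42.

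*F13a1* (A_51_P507801), the coagulation factor XIII chain that tissue macrophages make, gave 0.37, 0.72, 0.52 and 0.55 in the WT hearts and 0.08, 0.28, 0.40 and -0.03 in the SIRT1 KO hearts. The genotypes overlapped only in WT heart 1 and SIRT1 KO heart 3. Its log2 fold change was -0.36 (SE 0.12, 95% confidence interval -0.62 to -0.10, limma adjusted p = 0.121, exact two-sided permutation test p = 0.0571). *F13a1* passed the threshold with median scaling (-0.49, limma adjusted p = 0.0459), without scaling (-0.58, adjusted p = 0.0154) and with normexp (-0.44, adjusted p = 0.0206).

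The mannose receptor *Mrc1* (A_51_P439248) and the folate receptor *Folr2* (A_51_P162671), endocytic receptors of resident macrophages, were chosen after their values were seen. *Mrc1* stood at -1.99, -1.76, -1.34 and -1.88 in the WT hearts and at -2.12, -2.22, -2.27 and -1.99 in the SIRT1 KO hearts. Only WT heart 1 and SIRT1 KO heart 4 met, and the log2 fold change was -0.41 (SE 0.14, limma adjusted p = 0.143). Without WT heart 3, the highest, it was -0.27. *Folr2* was read at -3.49, -3.12, -3.36 and -2.94 in the WT hearts and at -4.11, -3.40, -3.45 and -4.18 in the SIRT1 KO hearts. SIRT1 KO hearts 1 and 4 were below every WT heart, and hearts 2 and 3 were within the WT range. The log2 fold change of *Folr2* was -0.56 (SE 0.21, limma adjusted p = 0.167). Without scaling both genes passed, *Mrc1* at -0.63 (limma adjusted p = 0.0268) and *Folr2* at -0.78 (limma adjusted p = 0.0244), and with normexp both were -0.22 (limma adjusted p = 0.227 and 0.236).

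*Cd163* (A_51_P231042), the hemoglobin scavenger receptor, spread the most among the WT hearts, at -4.96, -3.30, -4.08 and -4.00, against -4.19, -4.34, -4.27 and -5.19 in the SIRT1 KO hearts. The genotypes overlapped widely, and the log2 fold change was -0.41 (95% confidence interval -1.19 to 0.36, limma adjusted p = 0.52). It was -0.15 without WT heart 2, -0.18 without SIRT1 KO heart 4 and -0.70 without WT heart 1. The remaining genes of the group, *Cd14*, *Cx3cr1*, *Mertk* and *Lyz2*, had log2 fold changes of 0.37, -0.10, -0.12 and 0.25, none with an unadjusted p under 0.05, and without SIRT1 KO heart 3 those of *Cd14* and *Lyz2* were 0.15 and 0.03. These encode the endotoxin co-receptor, the fractalkine receptor, a receptor for dying cells and lysozyme.

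**Figure D2:**
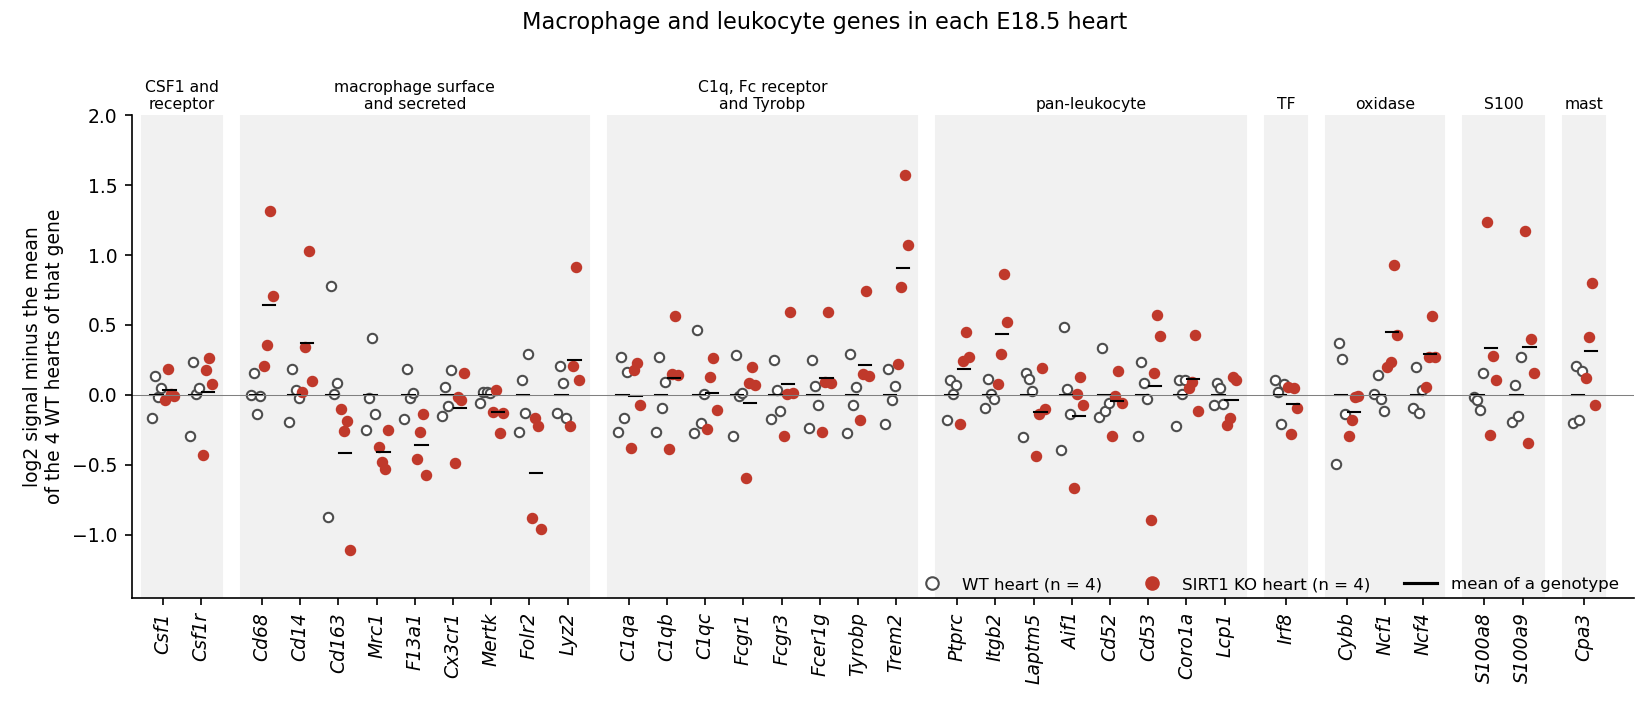
Log2 signal of each heart minus the mean of the 4 WT hearts of the same gene (y axis) for the 34 genes tested, grouped by role (x axis); open circles are WT hearts, filled circles SIRT1 KO hearts, each set in the order of hearts 1 to 4, and short lines the mean of a genotype. All 4 SIRT1 KO circles lie above the WT circles for *Trem2*, *Cd68* and *Ncf1*, and SIRT1 KO heart 1 stands far above the others for *S100a8* and *S100a9*.

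Among the C1q, Fc receptor and TYROBP genes, *Trem2* had the largest difference. *Trem2* (A_51_P269546) encodes a lipid receptor of macrophages that signals through TYROBP, and it had log2 signals of -0.93, -0.53, -0.76 and -0.66 in the WT hearts and of -0.50, 0.06, 0.86 and 0.35 in the SIRT1 KO hearts. Every SIRT1 KO heart was above every WT heart, although SIRT1 KO heart 1 was above WT heart 2 by only a little. The mean was -0.72 ± 0.17 (SD, n = 4) in WT and 0.19 ± 0.57 (SD, n = 4) in SIRT1 KO, so the spread was wider in the SIRT1 KO hearts.

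The log2 fold change of *Trem2* was 0.91 (SE 0.25, 95% confidence interval 0.35 to 1.47), or 1.88-fold, with a limma adjusted p of 0.0758 and an exact two-sided permutation p of 0.0286. Its second probe (A_51_P269549) read -3.67, -3.14, -3.31 and -3.20 in the WT hearts and -3.43, -2.62, -1.72 and -2.20 in the SIRT1 KO hearts, in the same order of SIRT1 KO hearts but with an overlap. That probe gave 0.84 (SE 0.32, limma adjusted p = 0.173). The call of *Trem2* depended on the processing. Of the 8 fits that leave out a heart it passed in 1, that without SIRT1 KO heart 1 (1.14, limma adjusted p = 0.0214). It also passed without scaling (0.69, adjusted p = 0.0459) and with normexp (0.84, adjusted p = 0.0296).

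The other genes of the group were near 0. *C1qc* (A_51_P102789), a chain of the first complement component, gave 0.32, 1.05, 0.39 and 0.60 in the WT hearts and 0.35, 0.72, 0.85 and 0.48 in the SIRT1 KO hearts. The log2 fold change was 0.01 (95% confidence interval -0.38 to 0.40, limma adjusted p = 0.98), and *C1qa* and *C1qb* gave -0.01 and 0.12. With each heart left out *C1qa* ran from -0.10 to 0.11 and *C1qb* from -0.03 to 0.29. *Fcgr3* (A_52_P408757), a low-affinity receptor for antibody, read -3.28, -2.86, -3.07 and -3.23 in the WT hearts and -3.41, -3.11, -2.52 and -3.10 in the SIRT1 KO hearts, with a log2 fold change of 0.08 (95% confidence interval -0.33 to 0.49, limma adjusted p = 0.838). In both genes the genotypes overlapped. *Fcgr1*, the high-affinity antibody receptor, and the adaptor chains *Fcer1g* and *Tyrobp* had log2 fold changes of -0.06, 0.12 and 0.21. Leaving out a heart turned *Fcgr1* to 0.12 (SIRT1 KO heart 1) and *Fcer1g* to -0.03 (SIRT1 KO heart 3). *Tyrobp*, the partner through which TREM2 signals, had a 95% confidence interval of -0.23 to 0.65, was 0.04 without SIRT1 KO heart 3 and 0.34 without SIRT1 KO heart 1, and whether its difference departs from that of *Trem2* was not tested.

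The pan-leukocyte genes, of which 8 were tested, had a median log2 fold change of 0.01 with 4 higher and 4 lower. *Itgb2* (A_51_P262208), the integrin chain CD18 shared by leukocytes, stood at -3.91, -3.70, -3.82 and -3.85 in the WT hearts and at -3.74, -3.53, -2.96 and -3.30 in the SIRT1 KO hearts. Only SIRT1 KO heart 1 fell below a WT heart, and the log2 fold change was 0.44 (SE 0.15, 95% confidence interval 0.09 to 0.79, limma adjusted p = 0.147). *Itgb2* passed with normexp (0.40, limma adjusted p = 0.0186), and it was 0.22 without scaling (limma adjusted p = 0.22), 0.30 with quantile normalization (limma adjusted p = 0.325) and 0.31 with median scaling (limma adjusted p = 0.236).

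*Cd53* (A_51_P337675), a tetraspanin of leukocytes, spread over -4.51, -3.98, -4.13 and -4.24 in the WT hearts and -5.11, -4.06, -3.64 and -3.79 in the SIRT1 KO hearts. SIRT1 KO heart 1 was the lowest of all 8, and the log2 fold change moved from 0.06 to 0.38 without it. *Coro1a* (A_51_P300277), an actin-binding protein of leukocytes, was at -0.54, -0.21, -0.31 and -0.21 in the WT hearts and at -0.27, -0.23, 0.11 and -0.43 in the SIRT1 KO hearts, with a log2 fold change of 0.11 (95% confidence interval -0.17 to 0.40, limma adjusted p = 0.644), which was 0.0080 without SIRT1 KO heart 3 and 0.04 without WT heart 1. *Ptprc*, the leukocyte common antigen CD45, gave 0.19, *Laptm5*, a lysosomal membrane protein, -0.12, *Aif1*, an actin-bundling protein known as IBA1, -0.15, *Cd52*, a surface glycoprotein, -0.05 and *Lcp1*, an actin-bundling plastin, -0.04. With each heart left out *Ptprc* ran from 0.10 to 0.32, *Laptm5* from -0.23 to -0.02 and *Aif1* from -0.28 to 0.02. *Cd52* ran from -0.12 to 0.07 and *Lcp1* from -0.09 to 0.02.

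The transcription factor *Irf8* (A_52_P354823), which directs monocyte and dendritic cell fate, had log2 signals of 0.95, 0.86, 0.63 and 0.92 in the WT hearts and of 0.90, 0.56, 0.88 and 0.74 in the SIRT1 KO hearts. The genotypes overlapped, with a log2 fold change of -0.07 (95% confidence interval -0.30 to 0.17, limma adjusted p = 0.749), and its dimmer probe gave 0.05.

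Of the phagocyte NADPH oxidase, which makes superoxide in phagocytes, both cytosolic subunits tested had log2 fold changes above 0 and the membrane subunit had one below 0. *Ncf1* (A_51_P207031), the organizer subunit p47phox, read -4.94, -4.81, -4.98 and -5.07 in the WT hearts and -4.75, -4.72, -4.02 and -4.52 in the SIRT1 KO hearts. The genotypes did not overlap, with SIRT1 KO heart 3 the highest, and the log2 fold change was 0.45 (SE 0.16, 95% confidence interval 0.09 to 0.80, limma adjusted p = 0.145, exact two-sided permutation test p = 0.0286). It was 0.29 without SIRT1 KO heart 3 and 0.25 with quantile normalization (limma adjusted p = 0.452). *Ncf4* (A_51_P377452), the subunit p40phox, stood at -1.54, -1.25, -1.58 and -1.41 in the WT hearts and at -1.39, -1.18, -0.88 and -1.17 in the SIRT1 KO hearts. Only SIRT1 KO heart 1 lay within the WT range, and the log2 fold change was 0.29 (SE 0.12, limma adjusted p = 0.207). That of *Ncf4* was 0.071 without scaling, 0.16 with median scaling and 0.20 without SIRT1 KO heart 3. *Cybb*, the membrane subunit gp91phox, had a log2 fold change of -0.13 (limma adjusted p = 0.727), which was -0.0023 without WT heart 2 and -0.29 without WT heart 1. Neither cytosolic subunit passed the threshold, and the difference between subunits was not tested.

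The S100 genes turned on 1 heart. *S100a8* (A_51_P256827) had log2 signals of -0.80, -0.82, -0.90 and -0.63 in the WT hearts and of 0.44, -1.08, -0.51 and -0.68 in the SIRT1 KO hearts. Its partner *S100a9* (A_51_P402943), with which it forms calprotectin, gave 2.09, 2.36, 2.14 and 2.56 and then 3.46, 1.95, 2.69 and 2.44. SIRT1 KO heart 1 was the highest and SIRT1 KO heart 2 the lowest of all 8 hearts for both genes. The log2 fold changes of 0.33 (SE 0.27, limma adjusted p = 0.518) for *S100a8* and 0.35 (SE 0.28, limma adjusted p = 0.508) for *S100a9* became 0.03 and 0.07 without SIRT1 KO heart 1. *Cpa3* (A_51_P214127), the carboxypeptidase of mast cell granules, read -0.57, -0.16, -0.55 and -0.20 in the WT hearts and -0.25, 0.04, 0.43 and -0.44 in the SIRT1 KO hearts. The genotypes overlapped, with a log2 fold change of 0.31 (95% confidence interval -0.11 to 0.74, limma adjusted p = 0.371). It was 0.15 without SIRT1 KO heart 3 and 0.61 without SIRT1 KO hearts 1 and 4.

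The hearts of 1 genotype differed from each other in these genes in a common order. WT heart 1 was the lowest WT heart for 28 of the 34 genes and WT heart 2 the highest for 26. SIRT1 KO heart 1 was the lowest of its genotype for 24 and SIRT1 KO heart 3 the highest for 24. The mean deviation from each gene's average over the hearts was -0.25 in WT heart 1, 0.16 in WT heart 2, -0.06 in WT heart 3 and -0.01 in WT heart 4. In the SIRT1 KO hearts it was -0.19, 0.02 and 0.34 in hearts 1, 2 and 3 and within 0.01 of 0 in heart 4. The median deviation of all probes tested lay between -0.02 and 0.01 in every heart. The array of SIRT1 KO heart 3 had the lowest 75th percentile, 777 intensity units, and its part in this order was not tested.

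**Figure D3:**
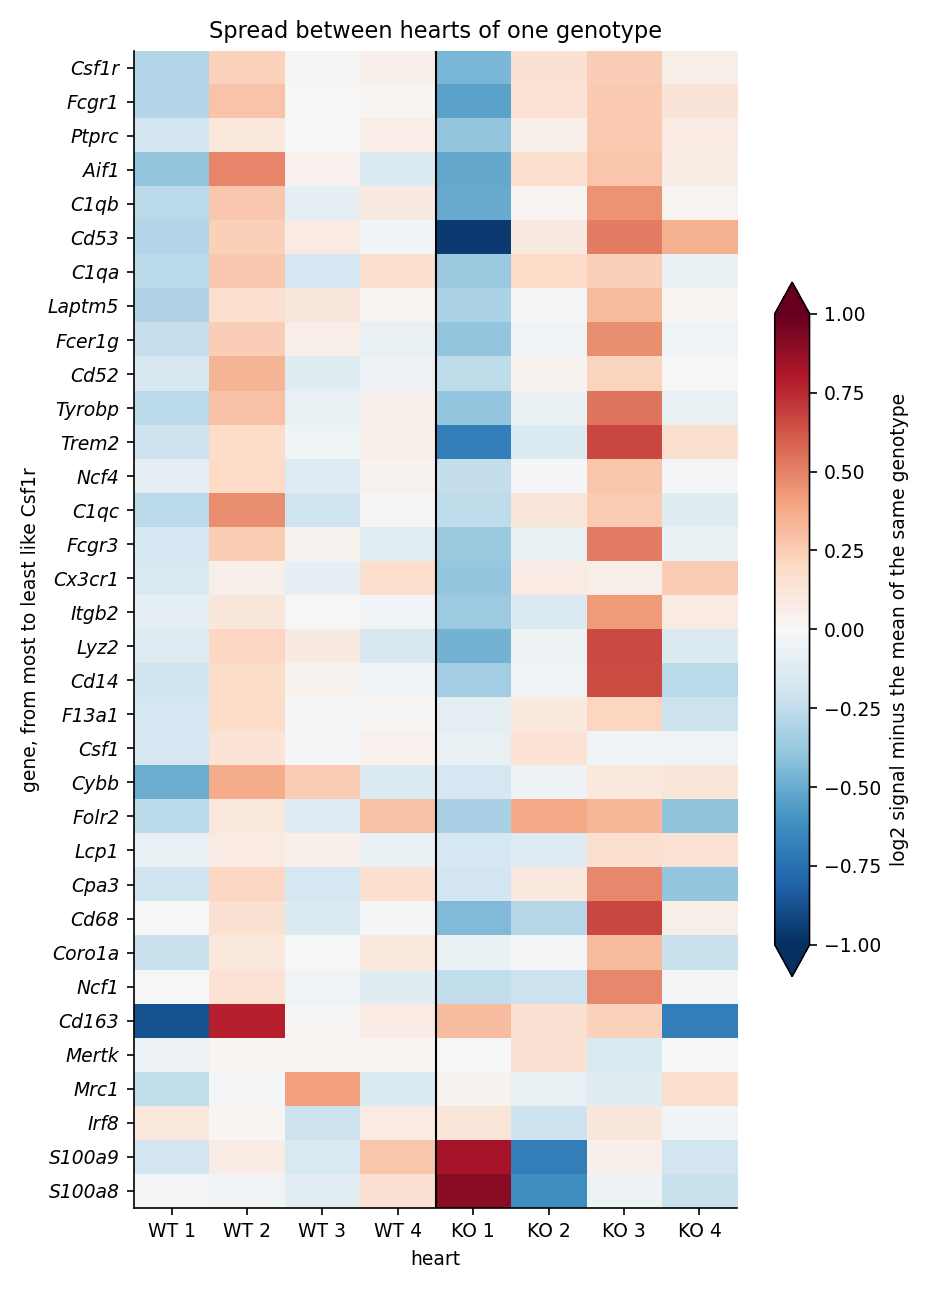
Log2 signal minus the mean of the same genotype, as color, for 34 genes (rows) in the 8 hearts (columns, with KO for SIRT1 KO); rows run from the genes most like *Csf1r* to those least like it, and the color scale ends at -1 and 1. The columns of WT heart 1 and SIRT1 KO heart 1 are blue and those of WT heart 2 and SIRT1 KO heart 3 red for most rows, while *S100a8* and *S100a9* are red in SIRT1 KO heart 1.

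*Csf1r* was taken as the reference for this order, with the genotype means removed. Over the 8 hearts, 14 of the other 33 genes had a Pearson correlation with *Csf1r* above 0.8 (42.4%), beside 2.69% of all probes tested, and the median was 0.76 against -0.02. *Fcgr1* (A_51_P296755), the closest, read -0.59, -0.0048, -0.30 and -0.27 in the WT hearts and -0.89, -0.21, -0.09 and -0.22 in the SIRT1 KO hearts, with heart 1 the lowest of its genotype in both, as for *Csf1r*. The highest correlations were those of *Fcgr1* (0.99), *Ptprc* (0.96), *Aif1* (0.94), *C1qb* (0.94), *Cd53* (0.92), *C1qa* (0.92) and *Laptm5* (0.91). *Trem2* was at 0.85, *Cd68* at 0.62, *F13a1* at 0.70 and *Folr2* at 0.69. *Mertk* (0.07) and *Mrc1* (0.05) lay near 0, and *Irf8* (-0.36), *S100a9* (-0.52) and *S100a8* (-0.71) ran the other way. The points of each correlation are the same 8 hearts, measured on the same arrays with the same scaling, so these values describe the hearts and carry no test.

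**Figure D4:**
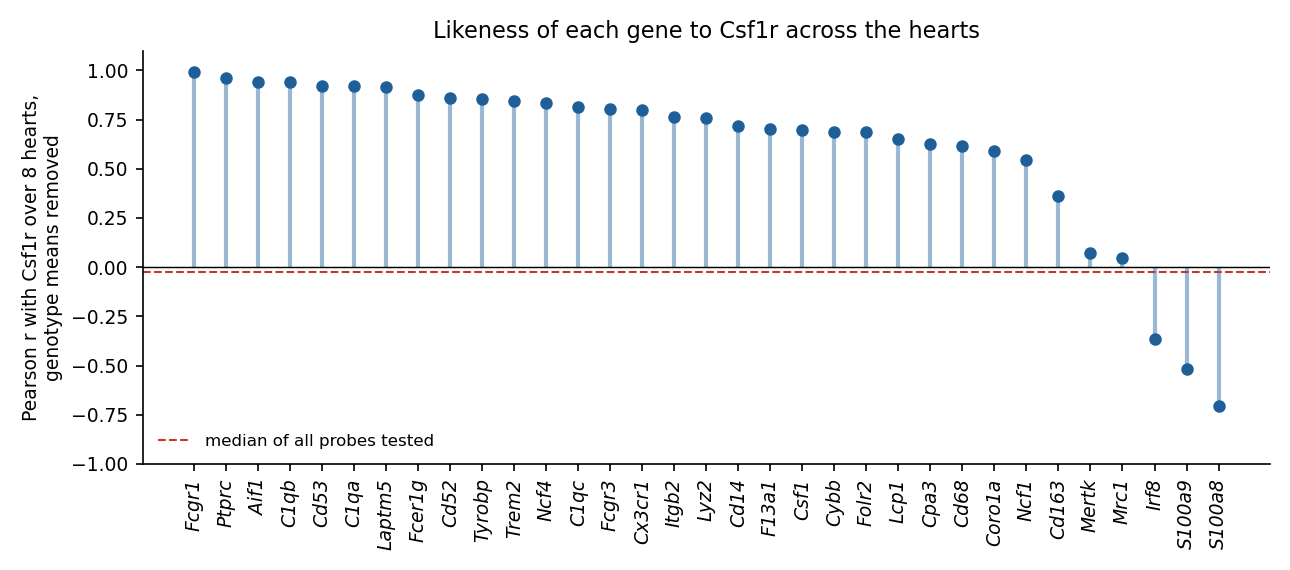
Pearson correlation with *Csf1r* over 8 hearts after genotype means were removed (y axis) for the other 33 genes (x axis); the dashed line is the median of all probes tested, -0.02. The genes fall from 0.99 for *Fcgr1* to -0.71 for *S100a8*, and 3 are below 0.

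Since the hearts differed in these genes together, the genotypes were also compared at an equal level of *Csf1r*, with its log2 signal in the same heart as a covariate, a comparison chosen after the data were seen. The log2 fold change of *Trem2* was then 0.88 (SE 0.15, limma adjusted p = 0.0178) on the brighter probe and 0.80 (SE 0.17, limma adjusted p = 0.0387) on the other. Both passed the threshold, the only ones of these genes' probes to do so, beside 5.37% of all probes. *F13a1* at -0.37 (limma adjusted p = 0.0715), *Itgb2* at 0.42 (adjusted p = 0.0797), *Folr2* at -0.58 (adjusted p = 0.0894) and *Cd68* at 0.63 (adjusted p = 0.0945) had SEs of 0.10, 0.12, 0.17 and 0.18 and did not pass.

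Genes of other cells moved with some of these hearts. The mean log2 signal of 7 hepatocyte genes of 9 listed, such as *Alb* and *Afp*, was 2.72 in SIRT1 KO heart 1 and 1.84 in SIRT1 KO heart 4, against -0.82 to 0.64 in the WT hearts and 0.04 and -0.47 in SIRT1 KO hearts 2 and 3. These 2 hearts were also those with the lowest *Folr2* and *F13a1*. Without both of them the log2 fold change of *Folr2* was -0.20 and that of *F13a1* -0.20, while *Trem2* was 1.17 (limma adjusted p = 0.0456) and *Mrc1* -0.50. The fit without both moved *C1qc* to 0.20, *Fcgr3* to 0.30, *Cd53* to 0.37, *Coro1a* to 0.26 and *Cd163* to -0.22, none past the threshold. The mean of 8 neutrophil genes of 13 listed, without *Elane* and *Mmp9*, which were above background on no array, was -2.81 in SIRT1 KO heart 1, the heart with the highest *S100a8* and *S100a9*, against -4.47 to -4.11 in the WT hearts and -4.21 to -3.96 in the other SIRT1 KO hearts. All 7 hepatocyte and all 8 neutrophil genes were higher in the SIRT1 KO hearts, none past the threshold by limma or analysis of variance. Of them, 1 and 2 had an unadjusted limma p under 0.05, beside 13.4% of all probes higher. *Cxcr2*, 1 of these neutrophil genes, was well above background on 1 WT and 3 SIRT1 KO arrays. It thus entered the test mainly through the group in which it was higher. Without SIRT1 KO heart 1 the neutrophil genes *Ltf*, *Ngp* and *Retnlg* were lower, at -0.39, -0.02 and -0.07. *Mpo*, *Ctsg* and *Camp* were still higher in that fit, at 0.50, 0.60 and 0.07. *Mmp8* and *Cxcr2* were at least 0.32 and 0.72 with each heart left out. The part of these cells in the results was not tested beyond the fits without these hearts.

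Monocyte and epicardial genes lay beside the lower means of *F13a1*, *Mrc1* and *Folr2*. Of 6 monocyte genes listed 5 were tested, all but *Ccr2*, and whether they track monocytes in these hearts was not tested. Of these, 2 were higher, *Chil3* at 0.82 and *Vcan* at 0.01. The other 3 were lower, *Ly6c2* at -0.36, *Plac8* at -0.54 and *Fn1* at -0.38. None of the 5 passed on its brightest probe. A dimmer probe of *Fn1*, fibronectin, fell by 0.47 (limma adjusted p = 0.0442) and passed in 2 of the 8 fits that leave out a heart, but not by the methods' analysis of variance (adjusted p = 0.0993). The monocyte mean ran from -0.34 to 0.20 in the WT hearts and from -0.23 to -0.02 in the SIRT1 KO hearts. All 5 epicardial genes were lower, with a median of -0.43 and none past the threshold, and their mean ran from 0.44 to 0.70 in the WT hearts and from -0.19 to 0.45 in the SIRT1 KO hearts. Their part in the results was not tested.

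**Figure D5:**
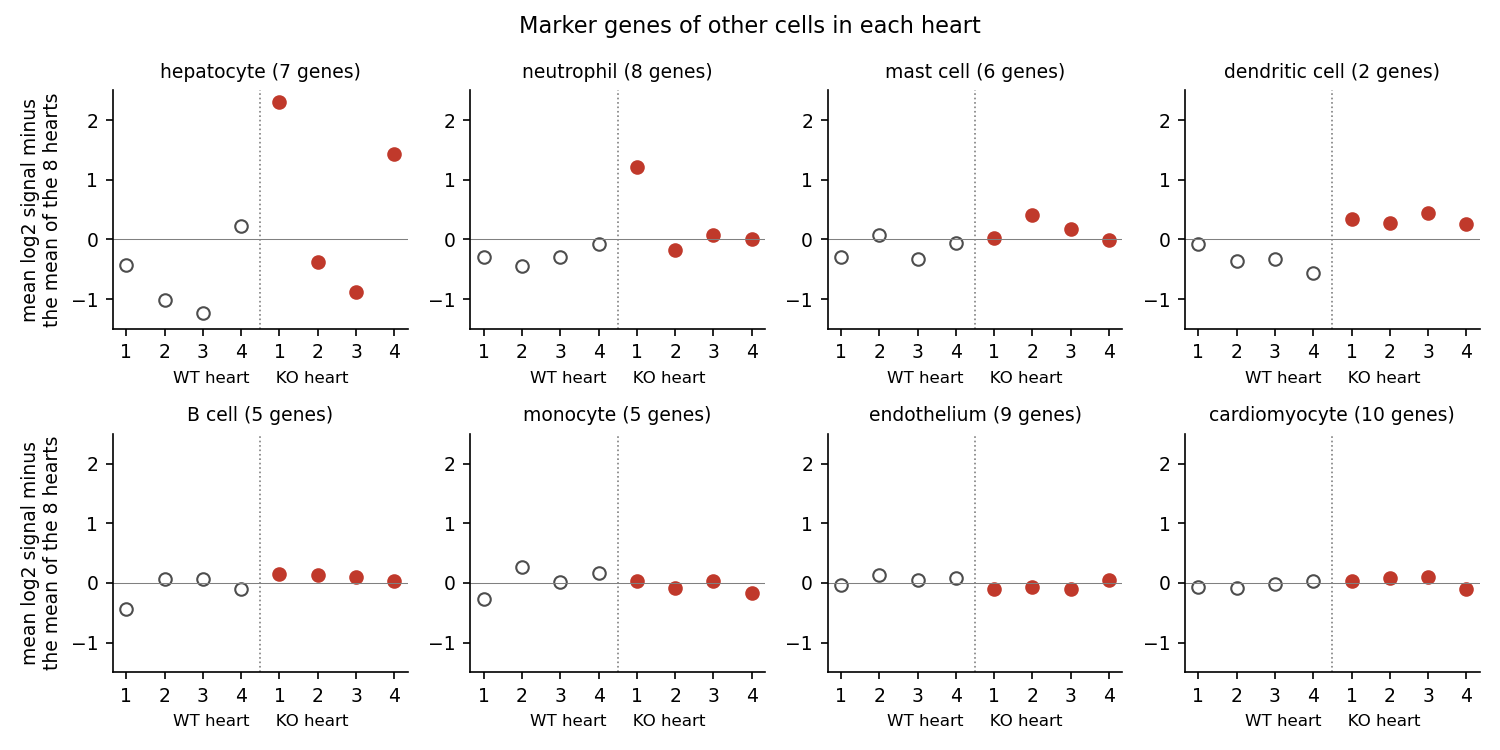
Mean log2 signal of the tested marker genes of 8 other cell types, minus the mean of the 8 hearts (y axis), in each heart (x axis, hearts 1 to 4 of each genotype); open circles are WT and filled circles SIRT1 KO. The hepatocyte genes stand high in SIRT1 KO hearts 1 and 4 and the neutrophil genes in SIRT1 KO heart 1, while cardiomyocyte and endothelial genes differ little between hearts.

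Lymphocyte genes were mostly at background. Of 10 T cell genes 1 was bright enough to test, and of 6 NK cell genes 0. Of 7 dendritic cell genes 2 were tested, and *Xcr1*, a chemokine receptor of cross-presenting dendritic cells, was higher in the SIRT1 KO hearts (log2 fold change 1.01, SE 0.13, limma adjusted p = 0.00383), while its other probe and the genes *Clec9a*, *Cd209a*, *Ccr7*, *Siglech* and *Flt3* of the same list were above background on no array. Of 6 mast cell genes tested none passed by limma or analysis of variance. Among them 1 was higher at an unadjusted limma p under 0.05, beside 13.4% of all probes. Their mean lay between -1.32 and -0.93 in the WT hearts and between -1.01 and -0.59 in the SIRT1 KO hearts. Of 8 erythroid genes tested, 5 were higher and 3 lower (lowest -0.68, highest 0.92), and 1 passed, the embryonic globin *Hbb-y* (0.92, SE 0.14, limma adjusted p = 0.00782). Beside these calls of *Xcr1* and *Hbb-y*, 4.88% of all probes passed.

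Other genes of these pathways were followed in 8 further lists, in all 122 genes, of which 102 were tested. Of these, 65 were higher and 37 lower, with a median of 0.06, and 3 passed the threshold on their brightest probes, beside 4.88% of all probes. At an unadjusted limma p under 0.05, 11 were higher and 11 lower, beside 13.4% and 8.1% of all probes. Of the colony-stimulating factor genes, 1 of 6 tested passed. *Csf2ra*, the alpha chain of the GM-CSF receptor, had log2 signals of 3.45, 3.16, 3.29 and 3.33 in the WT hearts and of 3.87, 3.69, 3.55 and 3.81 in the SIRT1 KO hearts. It rose by 0.42 (SE 0.10, limma adjusted p = 0.0424) and passed in 1 of the 8 fits that leave out a heart, that without SIRT1 KO heart 3. The methods' analysis of variance lost the call (adjusted p = 0.0852). *Csf2rb*, the beta chain shared with the IL-3 and IL-5 receptors, rose on its dimmer probe from -4.80, -4.89, -4.57 and -4.71 to -3.90, -3.92, -3.57 and -3.96 (0.91, SE 0.11, limma adjusted p = 0.00337), and was 0.32 on its brighter probe (adjusted p = 0.192).

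Of the 14 myeloid transcription factors tested, 1 rose and 1 fell past the threshold, beside 4.88% of all probes that passed in either direction. *Runx1*, needed for blood cell formation, rose from -4.60, -4.56, -4.40 and -4.41 in the WT hearts to -3.80, -3.82, -3.85 and -3.50 in the SIRT1 KO hearts (0.75, SE 0.10, limma adjusted p = 0.00439). *Klf4*, a factor of monocytes and also of endothelium, fell from 3.23, 3.31, 3.24 and 3.22 to 2.94, 2.80, 2.84 and 2.89 (-0.38, SE 0.07, limma adjusted p = 0.0136). Both kept their call in all 8 fits that leave out a heart, and in neither did the genotypes overlap.

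In the remaining lists no gene passed on its brightest probe. Of 21 further macrophage genes tested, the smallest p was that of *Apoe*, the lipid carrier, at 0.47 (limma adjusted p = 0.0707). Of 17 Fc receptor and TYROBP adaptor genes it was that of *Plcg2*, the phospholipase downstream of these receptors, at -0.36 (limma adjusted p = 0.094). Of 14 complement genes it was that of *Itgax*, the complement receptor chain CD11c, at 1.20 (limma adjusted p = 0.072). Of 5 oxidase partners it was that of *Nox4*, at -0.20 (limma adjusted p = 0.254). Of 14 actin and GTPase genes it was that of *Gmfg*, a regulator of actin branching, at -0.23 (limma adjusted p = 0.151). Over all tested probes of the actin and GTPase genes the smallest limma adjusted p was 0.0755. Of 11 integrins and adhesion genes the smallest p on a brightest probe was that of *Cd44*, the hyaluronan receptor, at -0.34 (limma adjusted p = 0.193). On a dimmer probe *Itgal*, the integrin chain CD11a that pairs with CD18, rose by 0.50 (SE 0.08, limma adjusted p = 0.00792), while its brighter probe gave 0.13 (adjusted p = 0.545).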

How the data were processed

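RNA of 8 hearts, 500 ng each, was hybridized to Agilent mouse arrays in one color. The authors deposited each array's spot intensity as Agilent Feature Extraction wrote it (version 12.0.0.7 in the file headers, 12 in the submitters' processing notes, another in the paper), background-subtracted and not scaled between arrays, with quality flags, and a value table whose intensities equal the processed signal. Here log2 intensities were taken, each array's 75th percentile over non-control spots was subtracted, control and outlier spots were left out, and spots of a probe were averaged. No spot was saturated. Accessions were matched without versions to RefSeq (GRCm38.p6), which named 28223 of 41174 probes (68.5%). Probes well above background on at least 4 arrays were tested with limma 3.58.1 (R 4.3.3; lmFit and eBayes) and Benjamini-Hochberg adjustment at 0.05 over all 25615. For single values an exact permutation test, two-sided, was added. The methods' analysis of variance was computed with genotype as its only factor, because its factors are not given in the sources used here. Tables and plots used Python 3.11.15, numpy 2.4.6, pandas 2.3.3 and matplotlib 3.10.9.

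The genes, their roles and the further lists were chosen with earlier results of these data known, so they are no independent evidence. Values in every heart are given for members past the threshold, without overlap between genotypes, with the smallest p of their role, or brightest or dimmest of their role. *Mrc1*, *Folr2*, *Fcgr1* and *Tyrobp* were singled out after their values were seen. Of each further list the genes past the threshold are named, and otherwise the gene with the smallest p. The labels call each sample a heart of its own, and the p-values measure the spread between 4 hearts per genotype, whose number limits the precision. On arrays simulated for this comparison from 25535 probes, with 200 changed by a log2 fold change of 1, limma recovered 93% of them, and 7.46% of its calls were unchanged probes. Correlations between arrays lay between 0.986 and 0.995. Alternatives covered scaling, background correction, the filter, the test, array weights, a replicate block, the value table, the probes of a gene and each heart left out; the fits without the hearts high in hepatocyte genes and with *Csf1r* as a covariate were added after seeing the data. The protein and probe sequences were not used here.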

Additional observations from a re-analysis of the deposited data

Results flagged for a closer look

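Within each genotype, 82 sets of 4 hearts were examined for a heart that lies far from the other 3, and 3 had one; chance gives about 1 in 20. *Cd163* was lowest in SIRT1 KO heart 4, at -5.19 against -4.34 to -4.19 in the other SIRT1 KO hearts, a gap of 0.845 of the whole range. *Mertk* was lowest in WT heart 1, at -2.05 against -1.98 to -1.97, a gap of 0.915 of a narrow range. *Fcgr1* was lowest in SIRT1 KO heart 1, at -0.89 against -0.22 to -0.09, a gap of 0.833, and the same heart was the lowest SIRT1 KO heart for 24 of the 34 genes.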

How the results depend on the processing

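The count of 0 macrophage and leukocyte genes past the threshold held with quantile normalization, cyclic loess, no filter on dim probes, a filter on all 8 arrays, array weights, the methods' analysis of variance, the replicate block, the value table and the mean of a gene's probes. It became 1 with median scaling, 4 without scaling, 3 with normexp on the median signal (4 probes), 1 without both hearts high in hepatocyte genes (1 probe) and 1 with *Csf1r* as a covariate (2 probes), and lay between 0 and 1 (0 to 2 probes) with each heart left out, *Trem2* passing without SIRT1 KO heart 1. Over all probes the 1250 calls became 6352 without scaling, 2566 with normexp, 546 by the analysis of variance, 2277 with array weights and 646 without both hearts high in hepatocyte genes, and lay between 657 (without WT heart 3) and 1825 (without SIRT1 KO heart 3); without WT heart 2, SIRT1 KO heart 1 and SIRT1 KO heart 2 they were 658, 728 and 726. The 3 further genes past the threshold became 7 with median scaling, 21 without scaling, 12 with normexp, 8 with array weights, and 5 each without both hearts and with the covariate, and lay between 2 and 5 with each heart left out, the highest without SIRT1 KO heart 3. The median over the 34 genes lay between -0.06 and 0.15 with each heart left out and was 0.20 without both hearts high in hepatocyte genes. The cause of these moves was not tested.

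Small differences changed sign. Further genes of the 34 turned too, but 19 were followed through the alternatives (*Csf1r* not with itself as the covariate). Of these, median scaling gave *C1qc* -0.12, *Cd53* -0.064, *Coro1a* -0.015, *Csf1* -0.091, *Csf1r* -0.11 and *Fcgr3* -0.050, and without scaling -0.21, -0.16, -0.11, -0.18, -0.20 and -0.14. Quantile normalization gave *Cd53* -0.093, *Csf1r* -0.0030 and *Fcgr3* -0.033, cyclic loess *Cd53* -0.077 and *Fcgr3* -0.0046, array weights *Cd53* -0.064, normexp *C1qc* -0.026 and *Cd163* 0.0077, the covariate *C1qc* -0.0095, and the fit without both hearts *S100a8* -0.0046. With each heart left out, *C1qc* ran from -0.081 to 0.16, *Cd53* from -0.11 to 0.38, *Csf1* from -0.018 to 0.082, *Csf1r* from -0.074 to 0.17, *Fcgr3* from -0.092 to 0.20 and *Irf8* from -0.14 to 0.0027. *Trem2* stayed between 0.69 and 1.17, *Cd68* between 0.41 and 0.84 and *F13a1* between -0.58 and -0.20 over all 22 alternatives.

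The replicate numbers were checked for pairing. The series design speaks of pairs, but the labels do not say that the numbers pair the hearts. Deviations of same-numbered hearts correlated at 0.20, 0.21, 0.06 and 0.14, and each heart correlated best with its own number. Not all were above 0.1, so the main fit took no pairs, although the hearts may be paired. With the replicate block 1185 probes passed in all, 5 further genes and 0 of the 34. The block changed the SE of *Csf1r* from 0.17 to 0.09, of *Trem2* from 0.25 to 0.20 and of *Mrc1* from 0.14 to 0.15. Normexp on the mean signal was not run, since the files analysed hold the median signal only. Dim probes limit what can be said of *Timd4*, *Spi1* and *Itgam*.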

Other observations

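Lymphoid genes that were bright enough to test had differences of both signs. Of 1 T cell, 2 thymocyte and 5 B cell genes tested none passed the threshold by limma or analysis of variance, and 1, 1 and 3 of them had an unadjusted limma p under 0.05, which 13.4% of all probes had as higher and 8.1% as lower. *Lck*, a kinase of T cells, was at -4.05 to -3.48 in the WT hearts and -5.02 to -4.22 in the SIRT1 KO hearts, with a log2 fold change of -0.70 (limma adjusted p = 0.0679). *Dntt*, the terminal transferase of early lymphocytes, had a log2 fold change of 0.80 (limma adjusted p = 0.114). Of the 5 B cell genes, 3 were higher and 2 lower, *Ms4a1* at -0.66 and *Cd79b* at -0.02, and among the higher ones *Blnk* and *Vpreb1* had log2 fold changes of 0.57 (limma adjusted p = 0.124) and 0.41 (limma adjusted p = 0.141). *Cd79a*, *Pax5* and *Igll1* of the same B cell list were above background on no array.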
